A study of Mus musculus with 6 samples.

Results

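The 8 genes described here encode proteins that join cells to each other or mark an epithelial state. They are *Jam2* and *Cldn6* of the tight junction, *Gja1* of the gap junction, *Cdh1* and *Cdh2* of the adherens junction, the adhesion molecule gene *Epcam*, the splicing regulator gene *Esrp1* and *Prom1*, which encodes an apical membrane protein. They were chosen by their roles and by differences already seen on these same arrays, so their differences are given as a description and none was tested. All 8 have a probe set among the 17097 genes that the array annotation names with a single symbol. Together they have 18 probe sets, with 5 each for *Jam2* and *Gja1*, 2 each for *Epcam* and *Cdh2*, and 1 for each of the other 4 genes.

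Epithelial cells are held together by cadherins, which bind each other across the gap between neighbours and are tied to actin by catenins. Claudins and junctional adhesion molecules build the tight junction that seals the layer, and connexins form channels that pass small molecules between cells. Naive mouse ESCs grow as compact colonies rich in E-cadherin, whereas the epiblast after implantation is a polarized epithelium, and the switch from E-cadherin to N-cadherin is a textbook sign of cells that leave the epithelial state.

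The study asked what the transcription factor PRDM14 and the TET enzymes do in the passage from primed to naive pluripotency. The mouse ESC line E14tg2a was profiled in 6 cultures, with 1 array for each condition. They were ESCs with no genotype in their label, EpiLCs (d2) and EpiLCs (d4) labelled Scramble, EpiLCs + PRDM14 labelled Scramble + PRDM14, and 2 KD-labelled cultures, with *Tet1*/*Tet2* KD in EpiLCs (d2) and in EpiLCs + PRDM14. EpiLCs are epiblast-like cells made from ESCs with activin A and bFGF over 2 days on fibronectin. The paper describes *Prdm14* as carried on a doxycycline-inducible piggyBac cassette in picked colonies, and the knockdown as shRNA from lentivirus. Cells were replated at day 2 with or without doxycycline, so EpiLCs (d4) are the scramble array matched in time to EpiLCs + PRDM14. There is no KD-labelled array of EpiLCs (d4), so in that background days in culture and PRDM14 cannot be told apart. GEO's protocol gives ESC medium with serum and LIF, while the paper's section on EpiLC induction gives N2B27 with inhibitors and LIF, and the medium of the ESC array is not settled by these sources.

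Levels are log2 RMA signals after subtraction of the median of each array, so 0 is the median of all probe sets on that array. The shift matters because the deposited medians were 5.28 to 5.29 on the 4 arrays without the KD label and 5.07 on the 2 with it. Each gene is represented by the probe set that is brightest, the one with the highest mean over the 6 arrays, and is called higher or lower where 2 arrays differ by at least 1.5-fold, or 0.585 on the log2 scale. With 1 array per condition no value has a replicate error, and each difference is between 2 cultures. In bulk RNA, fewer cells that express a gene and less of its RNA per cell cannot be told apart. Of the targeted genes, *Tet1* was not analysed here, and the brightest *Tet2* probe set was at 3.25 in EpiLCs (d2) and 3.43 in the KD-labelled array of that day. It was at 3.23 in EpiLCs + PRDM14 and 2.69 in the KD-labelled array with PRDM14. The *Prdm14* probe set was at 1.67 in ESCs and between -0.37 and -0.10 on the 5 EpiLC arrays, both PRDM14 arrays included. These probe sets thus do not show the overexpression, nor the knockdown at day 2, and with PRDM14 the *Tet2* levels were within 1.5-fold. The paper used qRT-PCR and western blotting to check PRDM14 levels in the picked colonies and the efficiency of the knockdown. KD and + PRDM14 are used below as labels. All 6 naive markers, such as *Klf4* and *Nanog*, had higher levels in ESCs than in EpiLCs (d2), while 4 of 5 primed markers, such as *Pou3f1*, were lower. Over the 6 arrays the mean level ranged from -0.90 to -0.66 for 6 fibroblast markers, from -1.10 to -0.71 for 5 endothelial markers, from -0.30 to -0.07 for 5 neural markers, from -0.04 to 0.19 for 6 markers of primitive endoderm, from 0.66 to 0.97 for 4 of mesoderm and from 0.36 to 0.81 for 5 of trophoblast, against 4.82 to 5.06 for 4 general pluripotency markers.

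Across the ESC and scramble arrays, *Jam2* was high in ESCs and with PRDM14, while *Epcam*, *Gja1*, *Esrp1* and *Prom1* were highest in EpiLCs without PRDM14. *Esrp1* stood apart from the other EpiLC-high genes because its level with PRDM14 differed from that at day 2 by 0.02. The E-cadherin gene *Cdh1* stayed within 1.5-fold in every pair of those 4 arrays.

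**Figure D1:**
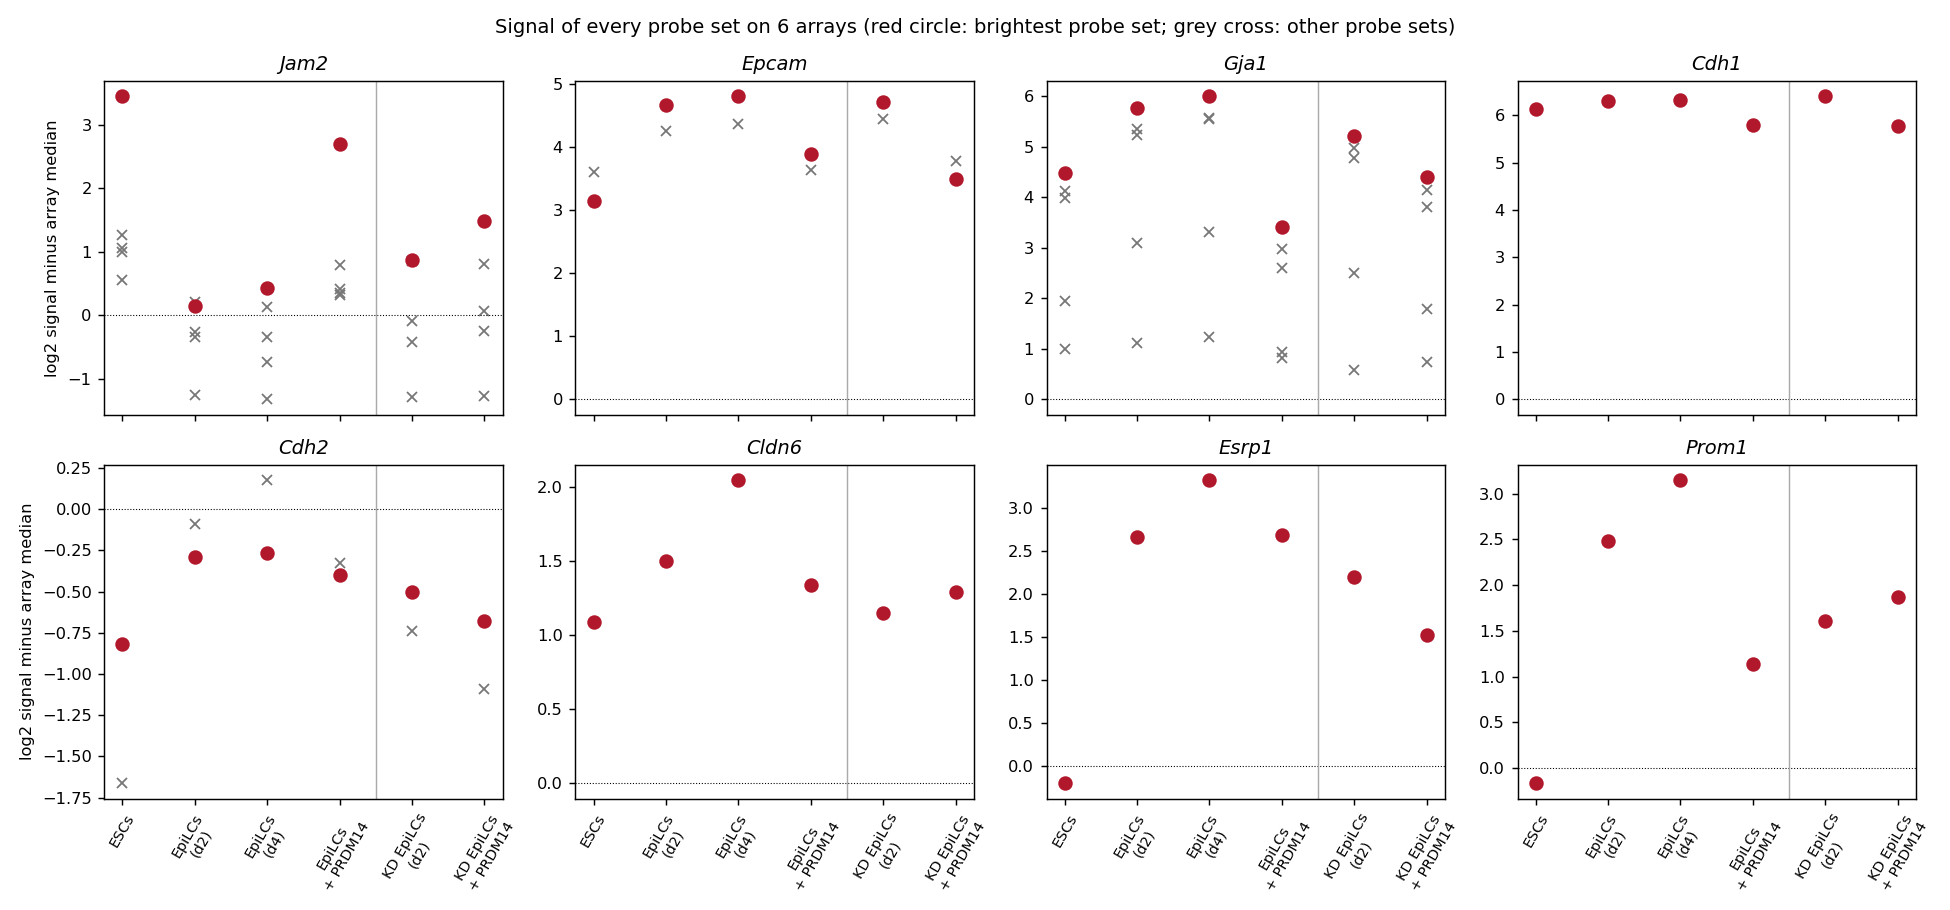
Log2 signal minus the array median (vertical axis) of all 18 probe sets of the 8 genes on the 6 arrays (horizontal axis). Red circles are the brightest probe set of a gene, grey crosses its other probe sets, the dotted line is the array median, and the grey vertical line divides the KD-labelled arrays from the rest. *Jam2* reads 3.45 in ESCs and 2.69 with PRDM14 but 1.48 in the KD-labelled array with PRDM14, and each panel has its own vertical scale.

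*Jam2* encodes a junctional adhesion molecule of the immunoglobulin family, found at tight junctions. Its brightest probe set read 0.14 in EpiLCs at day 2, 0.42 at day 4 and 2.69 with PRDM14, against 3.45 in ESCs. ESCs and EpiLCs + PRDM14 were thus high and both EpiLC cultures without PRDM14 near the array median. The ESC level was 9.95-fold that of EpiLCs (d2), a log2 difference of 3.31 that ranked 5 from the top among 17097 genes. With PRDM14 the level was 5.88-fold that of day 2 (2.56) and 4.82-fold that of day 4 (2.27), each ranking 7 from the top. It remained 0.76 below ESCs. The dimmer probe sets gave smaller differences of the same sign. Between ESCs and EpiLCs (d2) they were 2.32, 1.53, 1.35 and 0.34, and between EpiLCs + PRDM14 and EpiLCs (d2) they were 1.61, 1.06, 0.67 and 0.20, so 1 of the 5 probe sets of *Jam2* stayed within 1.5-fold in both.

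*Cldn6* encodes a claudin known from embryonic epithelia and pluripotent cells. Its probe set read 1.499 in EpiLCs at day 2, 2.05 at day 4 and 1.34 with PRDM14, against 1.09 in ESCs. The day 4 culture was the high one, and the other levels lay within 0.41 of each other. ESCs lay 0.96 below EpiLCs (d4), and EpiLCs + PRDM14 lay 0.71 below them. Against EpiLCs (d2) both were within 1.5-fold (-0.41 and -0.16), so *Cldn6* is past the threshold only in pairs that hold the day 4 array.

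*Gja1* encodes the main gap junction protein of many tissues. The brightest probe set read 5.76 in EpiLCs at day 2, 6.001 at day 4 and 3.41 with PRDM14, against 4.48 in ESCs. The culture with PRDM14 was the lowest, below the ESCs too. Its level was 5.10-fold lower than at day 2 (-2.35, rank 6 from the bottom), 6.03-fold lower than at day 4 (-2.59) and 2.11-fold lower than in ESCs (-1.08). ESCs in turn were 1.28 below EpiLCs (d2). Of the other 4 probe sets of *Gja1*, 3 gave -2.65 to -2.17 with PRDM14 against day 2 and -1.26 to -1.15 in ESCs, whereas the dimmest gave -0.29 and -0.11.

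*Epcam* encodes an epithelial cell adhesion molecule that ESCs carry on their surface. It read 4.67 in EpiLCs at day 2, 4.81 at day 4 and 3.90 with PRDM14, against 3.15 in ESCs. The culture with PRDM14 lay between ESCs and the EpiLCs without it. ESCs were 2.87-fold below EpiLCs (d2) (-1.52), and with PRDM14 the level was 1.71-fold below day 2 (-0.78) and 1.88-fold below day 4 (-0.91). The second probe set of *Epcam* gave -0.65, -0.61 and -0.72 for these pairs. It put EpiLCs + PRDM14 level with ESCs (0.04), where the brightest put them 0.75 above.

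*Prom1* encodes prominin 1, or CD133, a protein of apical membrane protrusions that also marks neural and other stem cells. Its probe set read 2.48 in EpiLCs at day 2, 3.15 at day 4 and 1.14 with PRDM14, against -0.17 in ESCs. ESCs lay just under the array median and every EpiLC culture above it. The ESC level was 6.26-fold below EpiLCs (d2) (-2.65, rank 7 from the bottom) and 9.96-fold below EpiLCs (d4) (-3.32). From day 2 to day 4 without PRDM14 it was higher by 0.67. With PRDM14 it was 2.54-fold below day 2 (-1.34) and 4.04-fold below day 4 (-2.01), and still 1.30 above ESCs.

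*Esrp1* encodes an RNA-binding protein that sets the epithelial splice forms of many transcripts. It read 2.66 in EpiLCs at day 2, 3.32 at day 4 and 2.68 with PRDM14, against -0.20 in ESCs. ESCs were the only array of these near the median. ESCs were 7.27-fold below EpiLCs (d2) (-2.86, rank 6 from the bottom) and 11.5-fold below EpiLCs (d4) (-3.52, rank 5 from the bottom). EpiLCs + PRDM14 differed from day 2 by 0.02 and from day 4 by -0.64. Its level with PRDM14 was 7.39-fold that of ESCs (2.89), rank 10 from the top in that pair.

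*Cdh1*, the E-cadherin gene, read 6.30 in EpiLCs at day 2, 6.31 at day 4 and 5.80 with PRDM14, against 6.13 in ESCs. The culture with PRDM14 was the lowest, by 0.50 from day 2 and 0.51 from day 4, short of 1.5-fold. *Cdh2*, the N-cadherin gene, was dim, with -0.29 in EpiLCs at day 2, -0.27 at day 4 and -0.40 with PRDM14, against -0.82 in ESCs. All 4 values lay under the array median. Its second probe set covered a wider range, at -0.09, 0.18, -0.33 and -1.66 in the same order. By that probe set ESCs were below EpiLCs (d2) by 1.57, whereas by the brightest one the difference was -0.53, within 1.5-fold. With PRDM14 both probe sets of *Cdh2* stayed close to day 2 (-0.11 and -0.23).

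The counts of these genes past 1.5-fold stand beside the share of all 17097 genes past it in the same direction. As the genes were chosen with these pairs in view, nothing is read from the difference. Comparing ESCs with EpiLCs (d2), 1 gene was higher (2.64% of all genes) and 4 were lower (2.35%). Against EpiLCs (d4), 1 was higher in ESCs (3.37%) and 5 were lower (4.19%). From day 2 to day 4 without PRDM14, 2 were higher (2.18%) and none was lower (1.12%). With PRDM14, 1 was higher than at day 2 (2.72%) and 3 were lower (1.91%), and compared with day 4 there was 1 higher (1.86%) and 5 lower (2.17%). Between EpiLCs + PRDM14 and ESCs, *Epcam*, *Esrp1* and *Prom1* were higher with PRDM14 (2.9% of all genes) and *Jam2* and *Gja1* lower (2.25%). The pairs that share an array are not independent of each other.

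**Figure D2:**
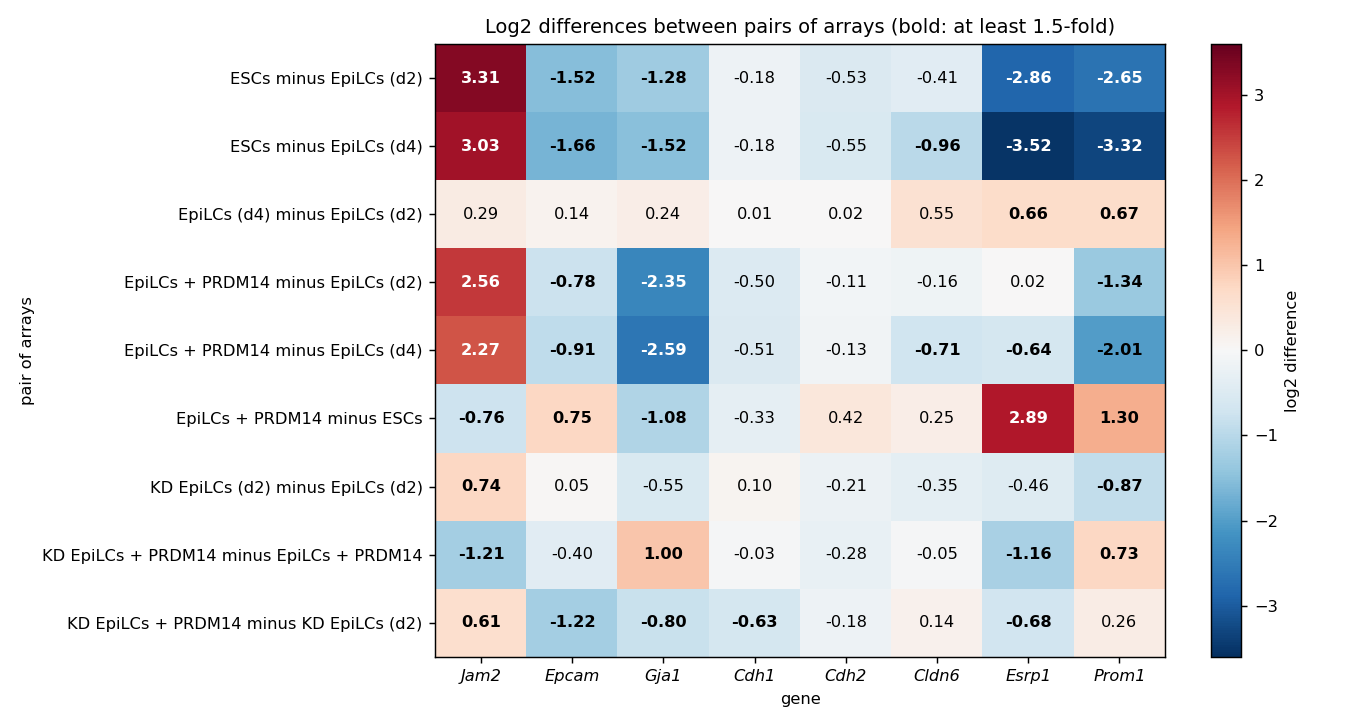
Log2 differences of the brightest probe set of the 8 genes (horizontal axis) for 9 pairs of arrays (vertical axis), with red for higher and blue for lower in the array named first. Bold values are at least 1.5-fold, such as 3.31 for *Jam2* in ESCs minus EpiLCs (d2) and 2.89 for *Esrp1* in EpiLCs + PRDM14 minus ESCs.

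In the KD-labelled arrays, *Jam2* was less high with PRDM14, *Gja1* less low, *Prom1* not lower and *Esrp1* lower than in the scramble arrays. *Jam2* read 0.87 in KD EpiLCs (d2) and 1.48 in KD EpiLCs + PRDM14, against 0.14 and 2.69 in the scramble arrays. Its difference with PRDM14 was 0.61 where the scramble pair gave 2.56. The KD-labelled value minus the scramble value, -1.95, ranked 3 from the bottom of all genes. By the dimmer probe sets this gap was -1.59, -0.82, -0.57 and -0.24, not all past 1.5-fold. The mean of the 5 gave -1.04. The other probe sets of *Jam2* gave -0.15 to 0.49 with PRDM14 in the KD-labelled pair, so the brightest alone passed 1.5-fold there, and the mean of the 5 was at 0.18. At day 2, *Jam2* was 0.74 higher in the KD-labelled array by its brightest probe set. The others gave 0.64, 0.26, -0.03 and -0.16, so 2 of the 5 had the opposite sign. The mean of the 5 was 0.29, and the brightest gave 0.52 without the median shift, both short of 1.5-fold. The mean level of the 6 naive markers was 2.85 there against 2.13 in the scramble array of that day. With PRDM14 these markers averaged 4.08 in the KD-labelled array and 3.57 in the scramble array, while *Jam2* was 1.21 lower in the former. The markers differed unevenly in that pair, at 1.81 (*Klf4*), 0.78 (*Tbx3*), 0.50 (*Tfcp2l1*), 0.23 (*Nanog*), -0.01 (*Esrrb*) and -0.24 (*Zfp42*). The dimmer probe sets of *Jam2* gave 0.40, -0.73, -0.56 and -1.62 there. The part of the naive state in the *Jam2* levels was not tested.

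*Gja1* read 5.21 in KD EpiLCs (d2) and 4.41 in KD EpiLCs + PRDM14. Its difference with PRDM14 was -0.80 against -2.35 in the scramble pair, and the responses differed by 1.55, rank 10 from the top. The 3 next brightest probe sets of *Gja1* gave -0.96 to -0.72 in the KD-labelled pair, and their responses differed by 1.45 to 1.69. The dimmest gave 0.15 in that pair, and its responses differed by 0.44. With PRDM14 the KD-labelled array was 2.00-fold above its scramble counterpart (1.00), at a level close to the 4.48 of ESCs. By the dimmest probe set that difference was -0.09.

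For *Prom1*, the KD-labelled arrays read 1.60 at day 2 and 1.87 with PRDM14. The first was 0.87 below the scramble array of that day and the second 0.73 above its counterpart, the latter 0.52 without the median shift. The difference with PRDM14 was 0.26 in the KD-labelled pair and -1.34 in the scramble pair, so the responses had opposite signs and lay 1.61 apart, rank 7 from the top. *Esrp1* read 2.199 and 1.52, which placed KD EpiLCs + PRDM14 1.16 below EpiLCs + PRDM14, rank 37 from the bottom. It was lower with PRDM14 by 0.68 in the KD-labelled pair, whereas the scramble pair gave 0.02.

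*Epcam* and *Cdh1* were lower with PRDM14 in both backgrounds, though *Cdh1* passed 1.5-fold only in the KD-labelled pair. *Epcam* read 4.72 and 3.499 in the KD-labelled arrays, a difference of -1.22 against -0.78 in the scramble arrays. By its second probe set these differences were -0.66 and -0.61, a gap of -0.06. *Cdh1* read 6.40 and 5.77, a difference of -0.63 against -0.50. *Cldn6* read 1.15 and 1.29, within 1.5-fold of each other and of their scramble counterparts. *Cdh2* read -0.50 and -0.68 by its brightest probe set, also within 1.5-fold, whereas its second probe set was past it against the scramble arrays, at -0.65 for day 2 and -0.77 with PRDM14. Against scramble EpiLCs (d2), 1 of the 8 genes was higher in the KD-labelled array (3.3% of all genes) and 1 lower (2.25%). With PRDM14, 2 were higher (3.58%) and 2 lower (3.38%) than in the scramble array. Without the median shift these shares of all genes would be 1.12% higher and 7.46% lower at day 2, and 1.41% and 9.58% with PRDM14, so the directions in these 2 pairs hold relative to the array median. Within the KD-labelled pair, 1 was higher with PRDM14 (2.12%) and 4 were lower (2.53%). The difference with PRDM14 in the KD-labelled pair minus that in the scramble pair was past 1.5-fold above 0 for *Gja1* and *Prom1* (0.994% of all genes) and past it below 0 for *Jam2* and *Esrp1* (2.25%). No test of these differences is possible with 1 array each.

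**Figure D3:**
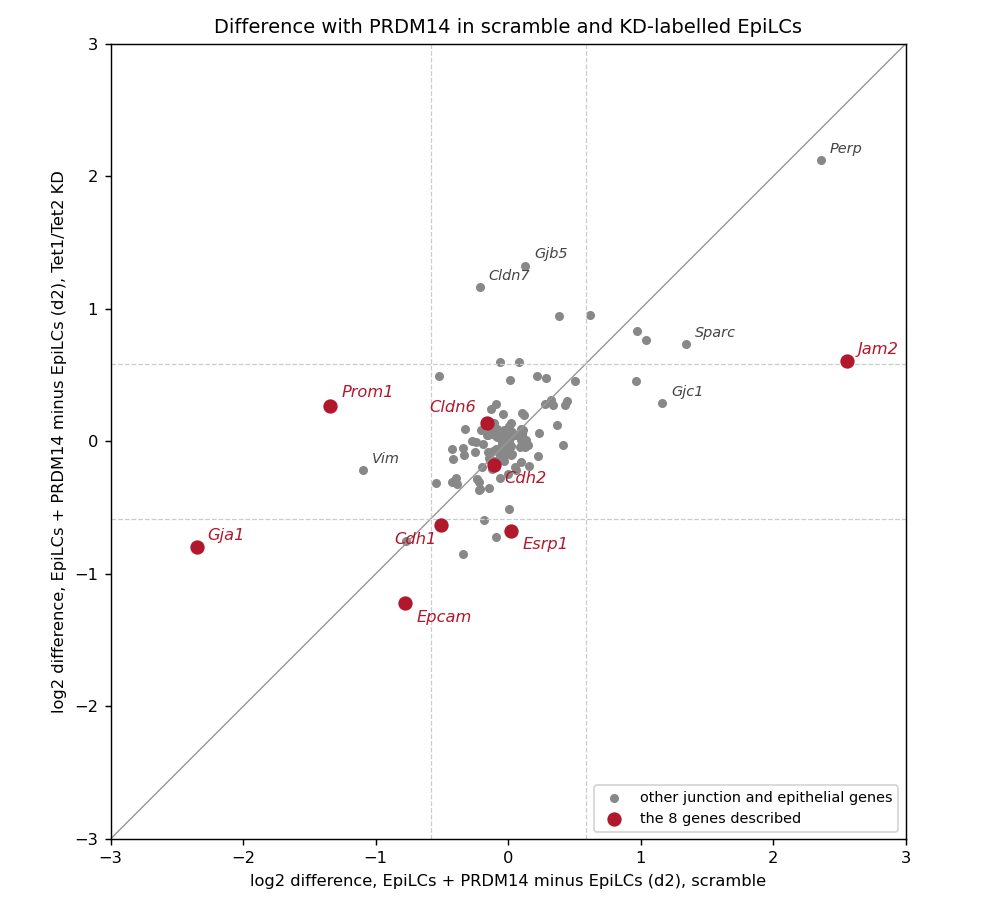
Log2 difference between EpiLCs + PRDM14 and EpiLCs (d2) in the scramble arrays (horizontal axis) and in the KD-labelled arrays (vertical axis), with red points for the 8 genes and grey points for the other genes of the junction and epithelial lists. The solid line marks equal differences and the dashed lines 1.5-fold. *Jam2* lies at 2.56 and 0.61, *Gja1* at -2.35 and -0.80, and *Prom1* at -1.34 and 0.26, all far from the line, while *Perp* lies near it.

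Promoter windows are shown for *Gja1*, *Epcam* and *Prom1*, the EpiLC-high genes with an entry, because TET enzymes act on methylated cytosine in CpG and of the genes with an entry *Gja1* and *Prom1* had the PRDM14 differences that lay furthest apart between KD-labelled and scramble arrays. RefSeq windows of 300 bases, from 250 before to 50 after a transcript start in GRCm38.p6, were found for 4 of the 8 genes, *Cldn6* being the other. Each is written 5′ to 3′ on the strand of the gene, with every CpG in capitals. Methylation was not measured on these arrays.
Gja1, chr10:56377050-56377349, plus strand: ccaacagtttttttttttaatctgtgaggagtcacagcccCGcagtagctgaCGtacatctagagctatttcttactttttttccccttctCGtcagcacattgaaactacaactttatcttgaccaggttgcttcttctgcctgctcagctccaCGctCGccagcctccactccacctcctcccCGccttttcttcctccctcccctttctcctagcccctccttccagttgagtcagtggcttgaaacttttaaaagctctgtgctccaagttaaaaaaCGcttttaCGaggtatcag
Epcam, chr17:87635729-87636028, plus strand: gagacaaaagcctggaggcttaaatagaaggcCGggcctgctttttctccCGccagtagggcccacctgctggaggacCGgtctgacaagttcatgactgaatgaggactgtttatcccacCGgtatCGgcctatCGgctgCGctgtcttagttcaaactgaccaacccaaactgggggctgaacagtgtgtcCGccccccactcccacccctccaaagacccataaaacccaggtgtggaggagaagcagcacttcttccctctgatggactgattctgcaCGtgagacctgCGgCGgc
Prom1, chr5:44101687-44101986, minus strand: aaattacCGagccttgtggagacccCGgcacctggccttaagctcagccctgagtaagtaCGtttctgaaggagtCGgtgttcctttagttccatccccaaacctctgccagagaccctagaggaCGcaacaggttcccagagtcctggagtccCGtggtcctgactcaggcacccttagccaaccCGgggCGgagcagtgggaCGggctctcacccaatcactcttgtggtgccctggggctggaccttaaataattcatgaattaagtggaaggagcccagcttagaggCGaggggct

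The *Gja1* window holds 8 CpG, that of *Epcam* 11 and the printed one of *Prom1* 10, where the median of 32851 such windows is 7. A second *Prom1* window, at a start further downstream, holds 4 and that of *Cldn6* 10. CACCTG, an E-box form bound by the repressors ZEB and SNAIL, was searched on both strands. It occurs 2 times each in the windows of *Epcam* and *Cldn6*, once in the printed window of *Prom1*, and not in that of *Gja1*, and 20.2% of all windows hold it. GGTCTCTAA, the core of the known PRDM14 motif, is in none of the 5 windows and in 0.256% of all. A match is a run of letters and shows no binding.

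Other junction genes were taken from lists of textbook members, and their counts past 1.5-fold depended on the pair of arrays. In the tight junction list, 23 of 24 genes were measured. Comparing ESCs with EpiLCs (d2), 1 was higher (2.64% of all genes) and 2 were lower (2.35%). The list median was -0.09 where that of all genes was -0.00037. *Cldn4* (-0.75) and *Cldn7* (-0.85), both claudin genes of epithelia, were the lower ones. Against EpiLCs (d4), *Cldn4* was lower in ESCs by 1.98 and *Cldn7* by 2.05. Also lower in that pair were *Cgn*, the gene of the junction scaffold cingulin (-1.08), and *F11r*, which encodes the *Jam2* relative JAM-A (-0.83). With *Cldn6*, 5 of 23 were lower (4.19% of all genes) and 1 was higher (3.37%). With PRDM14, *Jam2* was the single gene past 1.5-fold against day 2, and the list median was -0.14. Against day 4 with PRDM14, 5 were lower (2.17% of all genes), among them *Cldn4* (-1.75), *Cldn7* (-1.42) and *Cgn* (-1.01). *Cldn7* was higher with PRDM14 in the KD-labelled pair by 1.17 and at -0.22 in the scramble pair, a gap of 1.38, and *Cldn4* had a gap of 1.02. In the scramble arrays without PRDM14, day 4 was above day 2 by 1.21 for *Cldn7* and 1.23 for *Cldn4*. *Cldn3*, another claudin gene, was higher in the KD-labelled than in the scramble arrays by 0.88 at day 2 and 1.00 with PRDM14, and *Ocln*, the occludin gene, by 0.72 at day 2 (0.51 without the median shift, short of 1.5-fold).

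**Figure D4:**
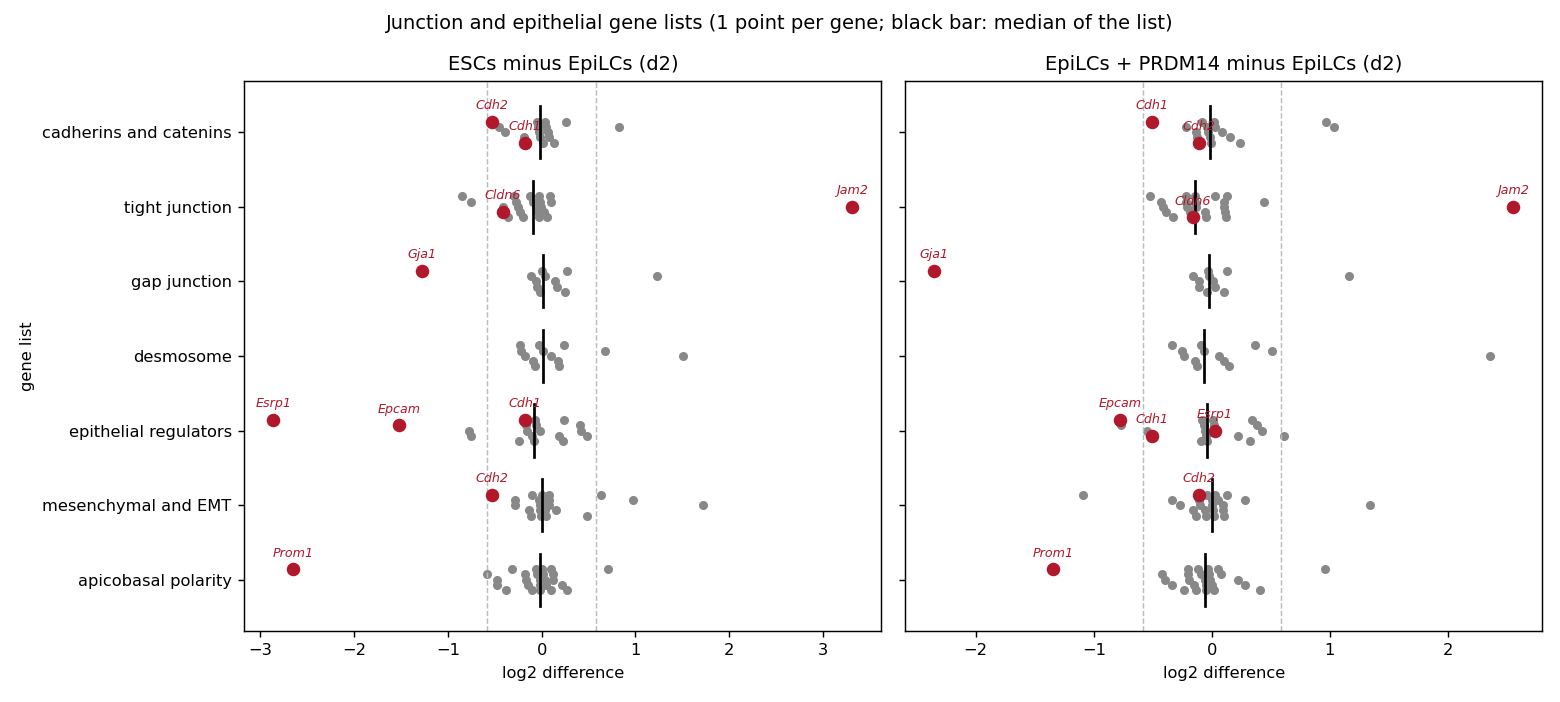
Log2 differences (horizontal axes) of the measured genes of 7 lists (vertical axis) in ESCs minus EpiLCs (d2), left, and EpiLCs + PRDM14 minus EpiLCs (d2), right. Each point is a gene by its brightest probe set, red for the 8 genes described, the black bar is the median of the list and the dashed lines mark 1.5-fold. The medians lie close to 0, at -0.09 and -0.14 for the tight junction list, while *Jam2* lies at 3.31 and 2.56.

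Among 12 measured connexin and pannexin genes of 16, *Gjc1*, another connexin gene, differed in the opposite direction to *Gja1*. It read 2.30 in EpiLCs at day 2, 2.10 at day 4 and 3.47 with PRDM14, against 3.53 in ESCs. ESCs were 1.23 and EpiLCs + PRDM14 1.16 above day 2, and no gene of the list besides *Gjc1* and *Gja1* was past 1.5-fold in either pair. In the KD-labelled pair *Gjc1* was at 0.29 with PRDM14, 0.88 short of the scramble value. *Gjb5*, a connexin gene of skin and placenta, was higher with PRDM14 in the KD-labelled pair by 1.33 and at 0.13 in the scramble pair. Without PRDM14 it was 0.70 higher at day 4 than at day 2 in the scramble arrays. The median of the list was 0.02 in ESCs and -0.03 with PRDM14, each against EpiLCs (d2).

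All 17 genes of the cadherin and catenin list were measured, with a median of -0.01 in ESCs against EpiLCs (d2). In that pair none was lower (2.35% of all genes) and 1 was higher (2.64%). It was *Vcl*, the gene of vinculin, which links junctions to actin (0.83). With PRDM14, *Vcl* (1.04) and *Cdh3*, which encodes P-cadherin (0.97), were higher than at day 2 (2.72% of all genes). None was lower (1.91%). Against EpiLCs (d4), *Cdh3* was 0.89 higher with PRDM14 and *Vcl* 0.32 higher, the latter within 1.5-fold. *Cdh3* read 1.08 in ESCs and 1.02 in EpiLCs (d2), so its level with PRDM14, 1.99, was above both. In the KD-labelled pair these genes were higher with PRDM14 as well, *Vcl* by 0.77 and *Cdh3* by 0.84. *Cdh6* was 0.86 lower in KD EpiLCs (d2) than in scramble EpiLCs (d2), and *Ctnnd1*, the gene of the catenin p120, 0.71 lower in KD EpiLCs + PRDM14 than in its counterpart. *Nectin3*, the gene of another adherens junction protein, was 0.70 lower in that pair.

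Of 20 epithelial regulator genes 19 were measured, with a median of -0.08 in ESCs against EpiLCs (d2). In that pair none was higher (2.64% of all genes) and 4 were lower (2.35%). Besides *Esrp1* and *Epcam* these were the Grainyhead factor genes *Grhl2* (-0.77) and *Grhl1* (-0.75). With PRDM14, *Grhl2* was at -0.77 in the scramble pair and -0.75 in the KD-labelled pair. Between EpiLCs + PRDM14 and EpiLCs (d4) it was at -0.45, within 1.5-fold. *Grhl2* read 2.69 in EpiLCs (d2) and 1.92 both in ESCs and with PRDM14. *Grhl1* was not lower with PRDM14 (0.34) and stood 1.09 above its ESC level there, as *Esrp1* did by 2.89. *Rbm47*, which encodes another splicing regulator of epithelia, was higher with PRDM14 by 0.62 and in the KD-labelled pair by 0.95. In the KD-labelled pair 3 genes of the list were higher with PRDM14 (2.12% of all genes) and 5 lower (2.53%). Among the latter was *Spint2*, the gene of a protease inhibitor of epithelial surfaces (-0.72). Between KD-labelled and scramble arrays, the epithelial transcription factor gene *Ehf* was at 0.84 at day 2 and 0.87 with PRDM14, and the Grainyhead factor gene *Grhl3* at 0.84 with PRDM14.

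The genes whose profile over the 6 arrays was most like that of each gene were taken from 1215 genes with a range of at least 1 on the log2 scale. The 6 points include the 2 arrays with the lower deposited median, and the r values are a description over 6 points only. *Jam2* was closest to *Cobl* (r = 0.98), an actin nucleator gene, and to *Myl7* and *Rpp25* (both 0.98). *Epcam* was closest to *Skil* (0.99), which encodes a regulator of SMAD signalling, *Wt1* (0.99) and *E2f7* (0.99). *Gja1* was closest to the de novo methyltransferase gene *Dnmt3b* (0.98), *Tasor2* (0.98) and *Cep76* (0.95). For *Prom1* these were *Rcbtb2* (0.98), *Pphln1* (0.97) and the imprinted *Cdkn1c* (0.96), and for *Esrp1* they were *Pcbp4* (0.99), *Pi4k2b* (0.98) and *Cyb5a* (0.97). *Cdh1*, *Cdh2* and *Cldn6* have ranges under 1 themselves, at 0.63, 0.55 and 0.96. Closest to *Cdh1* were *Bcar3*, *Enc1* and *Txnip*, to *Cdh2* *Tfdp2*, *Qser1* and *Ccdc136*, and to *Cldn6* *Igdcc4*, *Kdf1* and *Arid2*, all with r of 0.97 to 0.99. *Dnmt3b* read 6.19 at day 2, 6.43 at day 4, 4.09 with PRDM14, 5.05 in ESCs, 5.84 in KD EpiLCs (d2) and 4.59 in KD EpiLCs + PRDM14, and its arrays fall in the same order as those of *Gja1*.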

How the data were processed

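Expression was measured on 6 Affymetrix MG-430 PM arrays, 1 per condition, grouped by the GEO labels. Per the labels, the authors deposited log2 values made with RMA (background correction, quantile normalization and probe summary) in Affymetrix Expression Console, with no version stated in the labels or the paper. The lower medians of both KD-labelled arrays were removed by subtracting each array's median, which assumes that most genes do not change and can hide a global shift. Of 45141 probe sets, 104 controls were left out. Of the other 45037, 28898 had a single symbol in GEO's platform annotation, 551 had several and 15588 had none, giving 17097 genes. The genes described and the gene lists were chosen with earlier results of these data known. All members are named, with list genes past 1.5-fold in ESCs or EpiLCs + PRDM14 against EpiLCs (d2) or in a KD pair (up to 4 with the largest differences per list and pair), and the 3 most similar profiles per member. No test was made, and precision is limited by the number of arrays. Alternatives were no median shift, quantile normalization, the mean of all probe sets, the probe set of largest range, a filter on dim genes and a 2-fold threshold. Differencing was tested on simulated data.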

Additional observations from a re-analysis of the deposited data

Results flagged for a closer look

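For 3 genes the difference between EpiLCs + PRDM14 and EpiLCs (d2) had opposite signs in the scramble and the KD-labelled arrays. *Prom1* was at -1.34 in the scramble pair and 0.26 in the KD-labelled pair, 1.61 apart. *Esrp1* was at 0.02 and -0.68, a gap of -0.70. *Cldn6* was at -0.16 and 0.14, a gap of 0.30, with both values within 1.5-fold. With 1 array per condition these gaps were not tested.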

How the results depend on the processing

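No value of the 8 genes changed sign past the threshold under the alternatives run. Of the single values, 428 kept their side of 1.5-fold, 12 passed it anew and 22 no longer passed, 16 of these at a 2-fold threshold. At 2-fold the count past the threshold was 0 in place of 2 from EpiLCs (d2) to EpiLCs (d4), 3 in place of 6 for EpiLCs + PRDM14 against EpiLCs (d4), 3 in place of 5 against ESCs, 0 in place of 2 for KD against scramble EpiLCs (d2), and 1 in place of 5 for KD EpiLCs + PRDM14 against KD EpiLCs (d2). With the mean of all probe sets of a gene, 1 in place of 2 was past 1.5-fold for KD against scramble EpiLCs (d2), *Jam2* (0.29) being lost. Without the median shift, *Jam2* in KD against scramble EpiLCs (d2) was at 0.52 and no longer past 1.5-fold, while *Gja1* (-0.76) and *Esrp1* (-0.67) were. For KD against scramble EpiLCs + PRDM14 without the shift, *Epcam* (-0.61) was past 1.5-fold and *Prom1* (0.52) no longer was. By the *Cdh2* probe set with the largest range, ESCs were at -1.57 against EpiLCs (d2). An alternative chosen after seeing the data, the lists without the median shift, gave in KD against scramble EpiLCs (d2) 3 genes past 1.5-fold in place of 1 (cadherins and catenins), 1 in place of 3 (tight junction), 1 in place of 0 (gap junction), 2 in place of 6 (desmosome) and 3 in place of 1 (epithelial regulators), and with PRDM14 5 in place of 3 (cadherins and catenins). These list counts add both directions. With PRDM14 the polarity list went from 3 higher and 0 lower to 0 higher and 2 lower without the shift. The epithelial regulators went from 3 higher and 1 lower to 2 higher and 3 lower, and the mesenchymal list from 3 higher and 2 lower to 2 higher and 3 lower. The filter on dim genes removed *Cdh2*. No paired analysis was possible because each group has 1 array. No replicate could be left out for the same reason, and a difference here holds for 2 cultures.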

Other observations

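Desmosomes anchor intermediate filaments at cell contacts, and 13 of 15 genes of that list were measured. In KD EpiLCs (d2) 5 were higher and 1 lower than in scramble EpiLCs (d2), with a median of 0.32 where that of all genes was 0.03 and 3.3% of all genes were higher and 2.25% lower. The higher ones were *Perp* (1.16), *Pkp1* (0.79), *Dsg2* (0.73), *Jup* (0.71) and *Evpl* (0.64), and the lower one was *Pkp2* (-0.63). This count rests on the median shift: without it *Perp* (0.95) alone was higher past 1.5-fold, *Pkp2* was lower, and the list median was 0.11 where that of all genes was -0.19. With PRDM14 3 were higher in the KD-labelled array than in its counterpart and none lower (3.58% and 3.38% of all genes), with a median of 0.36, and 2 were higher without the shift, *Dsg2* and *Perp*. *Perp*, which encodes a desmosome membrane protein, read 0.14 in EpiLCs at day 2, 1.80 at day 4, 2.50 with PRDM14, 0.33 in ESCs, 1.30 in KD EpiLCs (d2) and 3.42 in KD EpiLCs + PRDM14. It was low in ESCs and at day 2 and highest in the arrays with PRDM14. With PRDM14, *Perp* was above day 2 by 2.36 in the scramble pair and 2.12 in the KD-labelled pair. Above EpiLCs (d4) it was by 0.70. *Dsg2*, a desmosomal cadherin gene, was 1.505 higher in ESCs than at day 2 and at -0.12 with PRDM14. *Pkp4*, a plakophilin gene, was 0.67 higher in ESCs.

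Of 23 genes of the mesenchymal list, all measured, 3 exceeded EpiLCs (d2) in ESCs (2.64% of all genes) and none was lower (2.35%). They were *Sparc*, a matrix protein gene (1.72), *Vim*, the gene of the filament protein vimentin (0.97), and the E-box repressor gene *Zeb1* (0.64). With PRDM14, *Sparc* was 1.34 higher and *Vim* 1.09 lower than at day 2. Against day 4, *Sparc* was 0.57 higher with PRDM14, short of 1.5-fold. *Vim* was 1.16 lower in EpiLCs (d4) than in EpiLCs (d2) too, and its level with PRDM14 differed from day 4 by 0.07. In the KD-labelled arrays *Zeb1* was higher than in the scramble arrays, by 1.03 at day 2 and 1.22 with PRDM14, while *Tcf4*, another E-box factor gene, was at -0.76 and -1.28 and the collagen gene *Col3a1* at -0.72 with PRDM14. *Sparc* was higher there by 1.25 at day 2 and by 0.65 with PRDM14, the latter 0.44 without the median shift. *Vim* was higher by 1.38 with PRDM14. Its difference with PRDM14 was -0.22 in the KD-labelled pair against -1.09 in the scramble pair, a gap of 0.88. Of 26 measured polarity genes of 29, in ESCs 1 was above EpiLCs (d2) (2.64% of all genes) and 1 below (2.35%). Compared with EpiLCs (d4), 5 were lower in ESCs (4.19% of all genes). The polarity gene *Dlg5* was higher in ESCs (0.71) and with PRDM14 (0.96) than at day 2. Against day 4 its difference with PRDM14 was 0.45, within 1.5-fold. *Crb1* (0.59 at day 2, 0.63 with PRDM14) and *Pard6b* (0.69 with PRDM14) were higher in the KD-labelled than in the scramble arrays, none of them past 1.5-fold without the median shift.

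Among cell state markers, *Tfcp2l1* (2.60) and *Tbx3* (2.01) were higher in ESCs than at day 2, and *Zfp42* (1.31) and *Esrrb* (1.18) were higher with PRDM14. *Otx2* and *Fgf5* were lower in ESCs (-1.71 and -0.93) and with PRDM14 (-1.44 and -0.94) than at day 2. *Otx2* was also at -1.10 from day 2 to day 4 without PRDM14. Between EpiLCs + PRDM14 and EpiLCs (d4), *Otx2* was at -0.34, within 1.5-fold, and *Fgf5* at -0.64. In ESCs against day 2, *Lin28a* was at -0.86 and *Dab2* at 0.91. With PRDM14 *Krt7* was at 0.68 and *Dcn* at -0.62 against day 2. Against EpiLCs (d4) they were at -0.51 and -0.43, both within 1.5-fold. *Krt7* was 1.19 higher at day 4 than at day 2 without PRDM14. Between KD-labelled and scramble arrays at day 2, *Tfcp2l1* was at 0.70 and *Thy1* at 0.67, both short of 1.5-fold without the median shift. With PRDM14, *Krt7* was at 1.15, *Tbx3* at 0.78, *Dab2* at 0.76, *Otx2* at -0.91 and the endothelial gene *Tek* at -0.95. Without the median shift *Tbx3* and *Dab2* were short of 1.5-fold.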
